A study of Rattus norvegicus with 6 samples.

Results

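The aminoacyl-tRNA synthetases of the rat renal cortex are described here, the enzymes that join each amino acid to its tRNA. The set holds 35 genes, 19 cytosolic and 16 mitochondrial, out of 15645 named genes on the array. A gene was a member when a probe's transcript accession belonged to a synthetase on a list of symbols; symbols ending in 1, with Farsa and Farsb, stand for cytosolic enzymes, and symbols ending in 2 for mitochondrial ones. Gars1 and Kars1 serve both compartments. Probes were found for 32 members, namely all 19 cytosolic and 13 of the 16 mitochondrial genes. No probe accession led to Iars2, Lars2 or Mars2. All 32 passed the filter on dim probes and lay well above background on every array.

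The arrays came from male Sprague-Dawley rats bought at 5 weeks of age. In the vehicle group, 3 rats were given corn oil, and in the TBBC group 3 rats were given 300 mg/kg/day of TBBC, the 4,4'-thiobis derivative of 6-tert-butyl-m-cresol, which is an antioxidant; both ran for 4 weeks. Each rat had its own Cy3 array of total RNA from the cortex, and the design text calls the 3 replicates of a group biological. In such bulk tissue, fewer cells of a type and less RNA per cell cannot be told apart. The set was chosen by gene family, and selected on the log2 signals of TBBC against vehicle, which were already known; that difference is therefore given for the members as a description. Counts of members past the threshold of the fit over all transcripts are printed beside the share of all transcripts past it, and nothing is read from them.

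A synthetase charges its tRNA in a reaction driven by ATP, and the cytosolic and mitochondrial enzymes supply separate ribosomes. Most are encoded by separate nuclear genes. When charged tRNA runs short, or when protein folding in the endoplasmic reticulum is disturbed, kinases that phosphorylate eIF2alpha slow translation as a whole and favour translation of the transcription factor ATF4. Many cytosolic synthetase genes are known targets of ATF4, together with genes for amino acid synthesis and uptake. The ATF4 composite site is often written TTGCATCA. In the kidney, the proximal tubule takes up and metabolises much of the filtered amino acid load.

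Signals are log2 values of the background-corrected spot brightness relative to the array's 75th percentile, so 0 means a spot as bright as that percentile. Levels of different probes are not compared. Slide 1 held all vehicle arrays together with that of TBBC 1, and slide 2 held TBBC 2 and TBBC 3. The 75th percentile ran from 861 in TBBC 2 to 1038 in vehicle 3, and TBBC 2 also had the smallest share of probes well above background, 67.1% against 69.7% to 70.9% on the other arrays. All 8 proximal tubule markers passed the filter, with a summed linear signal of 1311 to 1396 times the 75th percentile in vehicle rats and 1055 to 1255 in TBBC rats. Liver markers, which should be low in kidney, summed to 8.89 in vehicle 1 and to between 0.11 and 1.35 on the other arrays. The number of arrays limits the precision.

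Cytosolic synthetases lay higher on average in TBBC-treated cortex, but the size differed from rat to rat. Their median log2 fold change was 0.36, against -0.02 over all 32956 transcripts tested. All 19 were above 0, where 46.5% of all transcripts were, although 17 were with quantile normalization, 18 with normexp background correction and 17 with the mean of a gene's probes, Aars1 or Qars1 then lying just below 0. On the shared slide 17 were above 0, with Aars1 at -0.36 and Cars1 at -0.05, and without TBBC 2 16 were, with Aars1 at -0.30, Cars1 at -0.14 and Iars1 at -0.19. Relative to the vehicle mean, the median member stood at 0.39 in TBBC 1, 0.94 in TBBC 2 and -0.04 in TBBC 3. Over all transcripts these medians were -0.02, -0.05 and -0.01. The members were thus high in TBBC 1 and TBBC 2 and near vehicle levels in TBBC 3. TBBC 2 was above every vehicle array for 18 of 19 members (34.4% of all transcripts), TBBC 1 for 17 (33.2%) and TBBC 3 for 5 (34.3%). TBBC 2 was the highest of the 3 treated rats for 13 of 19 members (30.2% of all transcripts).

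**Figure D1:**
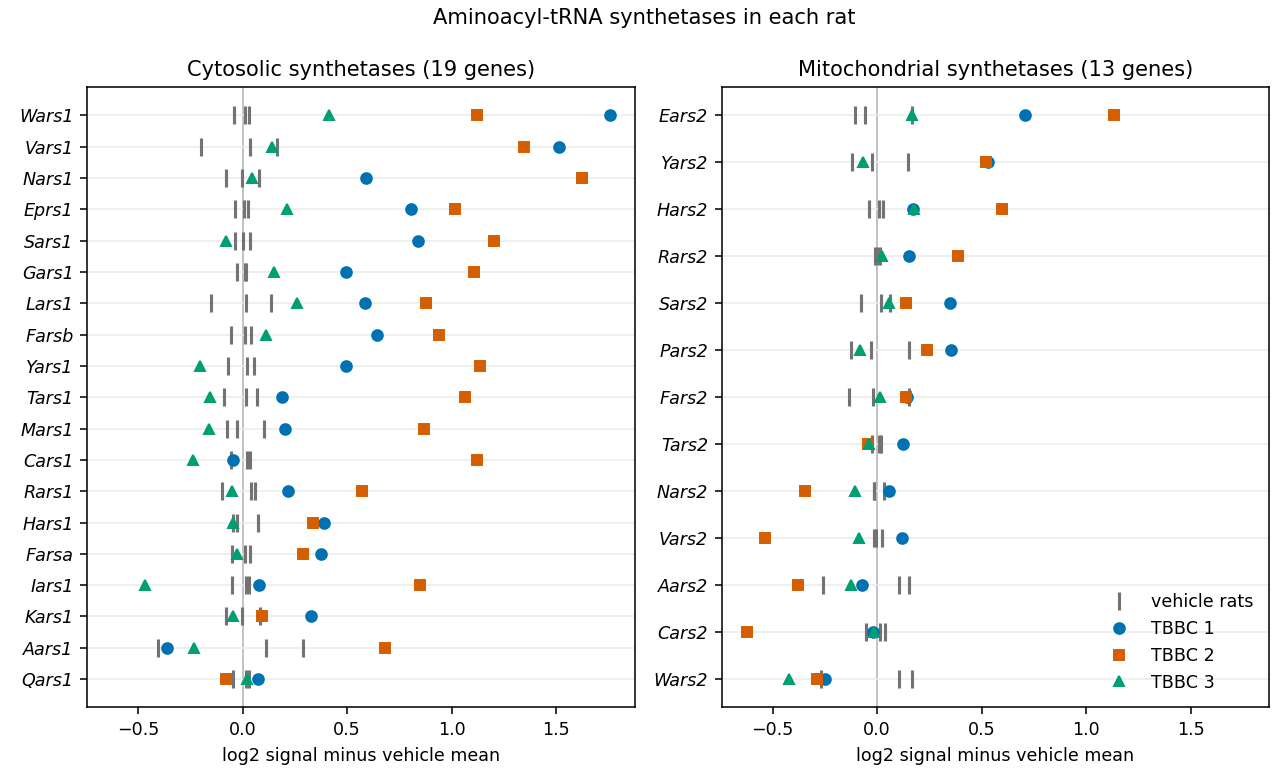
The log2 signal of each measured synthetase minus its vehicle mean, by rat: grey ticks are the 3 vehicle rats, coloured symbols the 3 TBBC rats, and genes are ordered by their mean difference. Most cytosolic genes spread from TBBC 3 near 0 to TBBC 2 near 1, with a cytosolic median of 0.94 in TBBC 2 and -0.04 in TBBC 3.

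None of the 19 passed the threshold of an adjusted p of 0.05 in limma's test across all transcripts, and 6 had an unadjusted p under 0.05; 0.531% of all transcripts passed and 20.0% had an unadjusted p under 0.05. All 3 TBBC rats lay above all 3 vehicle rats for 5 cytosolic members (3 with the mean of a gene's probes), where this held for 13.1% of all transcripts, and for no member did they all lie below (15.2%). The spread among treated rats was large: the median standard deviation of a cytosolic member was 0.06 among vehicle rats and 0.52 among TBBC rats, against 0.13 and 0.23 over all transcripts. In 19 of 19 members the TBBC rats had the larger standard deviation, as in 74.3% of transcripts. Without TBBC 2 the cytosolic median was 0.17, and without TBBC 3 it was 0.62. TBBC 3 was the lowest treated rat for 17 of 19 members, so leaving it out moves them up by construction; the groups were then apart for 16 of 19 members and for 20.9% of all transcripts.

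Wars1, the tryptophanyl enzyme, which interferon gamma also induces, had the largest difference. Its signal was 3.67, 3.65 and 3.60 in vehicle 1 to 3 and 5.39, 4.76 and 4.05 in TBBC 1 to 3. Every treated rat was above every vehicle rat, and TBBC 1 was the highest, unlike most other members. The mean difference was 1.10 ± 0.32 (SE, n = 3 per group), or 2.14-fold, and its other 2 probes gave 1.20 and 1.38. On the slide that holds both groups, where TBBC 1 is the only treated rat, its log2 fold change was 1.75. For 14 interferon gamma response genes the median relative to vehicle was 0.02 in TBBC 1, -0.27 in TBBC 2 and 0.67 in TBBC 3, and their summed signal was 70.6 to 87.0 in vehicle rats and 51.8, 55.1 and 79.4 in TBBC 1 to 3. In limma 0 of 14 passed and 4 had an unadjusted p under 0.05 (0.531% and 20.0% of all transcripts). All treated rats were above all vehicle rats for 3 of the 14, Cxcl10, Cxcl11 and Irf1 (13.1% of all transcripts). They were all below for 2, Ciita at -0.89 ± 0.23 and Cd74 at -0.85 ± 0.28 (15.2% of all transcripts). These genes are named after their values were seen. Cxcl10, a chemokine, read -0.23, -0.23 and -0.03 against 1.84, 3.56 and 1.16. The part of interferon gamma in the Wars1 values was not tested.

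Vars1, the valyl enzyme, showed a similar order. It was dim, at -3.86, -3.63 and -3.50 in the vehicle rats and -2.15, -2.32 and -3.52 in the TBBC rats. TBBC 1 and TBBC 2 were well above the vehicle range, while TBBC 3 lay within it. Its difference was 1.00 ± 0.37 (SE), or 2.00-fold, from the only probe of this gene.

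The asparaginyl, seryl and bifunctional glutamyl-prolyl enzymes came next. Nars1 read -0.70, -0.63 and -0.55 in vehicle rats and -0.04, 0.99 and -0.58 in TBBC rats, a difference of 0.75 ± 0.38. TBBC 2 stood 1.62 above the vehicle mean, the largest single value of any synthetase in that rat, and TBBC 3 was inside the vehicle range. Eprs1, whose protein carries a class I and a class II active site, read 3.77, 3.71 and 3.75 against 4.55, 4.76 and 3.95. On this probe its groups did not overlap, and the difference was 0.68 ± 0.21, but on its other probe TBBC 3, at 2.49, was below the vehicle range of 2.59 to 2.75. Sars1 read 1.44, 1.48 and 1.51 against 2.32, 2.68 and 1.40, a difference of 0.65 ± 0.32 with TBBC 3 below all vehicle rats.

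Gars1, Lars1 and Farsb made up the rest of the 5 members with separate groups, beside Wars1 and Eprs1. Gars1, the glycyl enzyme, read 4.63, 4.67 and 4.67 in vehicle rats and 5.15, 5.76 and 4.81 in TBBC rats (0.58 ± 0.24). Lars1, the leucyl enzyme and a sensor of leucine for mTORC1, read 0.34, 0.17 and 0.46 against 0.91, 1.20 and 0.58 (0.57 ± 0.18). Farsb, the beta chain of the phenylalanyl enzyme, read 2.25, 2.32 and 2.35 against 2.95, 3.25 and 2.42 (0.56 ± 0.22). In these 3 genes TBBC 3 was only just above the vehicle range. Of the other probes, 1 of 2 for Gars1 and both for Farsb did not separate the groups, whereas all probes of Wars1 and Lars1 did. Farsa, the alpha chain of the same enzyme, differed less, at 0.21 ± 0.13, with TBBC 3 inside the vehicle range.

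In 6 further genes TBBC 2 stood apart, with smaller values in TBBC 1 and values below the vehicle mean in TBBC 3. Cars1, the cysteinyl enzyme, read -0.08, -0.01 and 0.01 in vehicle rats and -0.07, 1.10 and -0.26 in TBBC rats. Only TBBC 2 was above the vehicle range, so the mean difference of 0.28 ± 0.35 rests on that rat and was -0.14 without it. Iars1, the isoleucyl enzyme, read 2.07, 1.99 and 2.05 against 2.12, 2.88 and 1.57, with TBBC 3 the lowest of the 6 arrays. Tars1, Mars1 and Yars1, the threonyl, methionyl and tyrosyl enzymes, stood 1.06, 0.87 and 1.13 above the vehicle mean in TBBC 2, and at -0.15, -0.16 and -0.20 in TBBC 3. In TBBC 1 they were at 0.19, 0.20 and 0.49. Their mean differences were 0.36 ± 0.30, 0.30 ± 0.26 and 0.47 ± 0.32. Aars1, the alanyl enzyme, varied among vehicle rats, at 4.51, 4.33 and 3.81, and read 3.86, 4.90 and 3.98 in TBBC rats; its difference of 0.03 ± 0.32 was below the vehicle standard deviation of 0.36.

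The remaining cytosolic members differed little. Qars1, the glutaminyl enzyme, had the smallest spread among treated rats, at 4.53, 4.59 and 4.60 in vehicle rats and 4.65, 4.50 and 4.59 in TBBC rats, a difference of 0.01 ± 0.10. Its value in TBBC 2 was the lowest of the 6. Kars1, Hars1 and Rars1, the lysyl, histidyl and arginyl enzymes, had differences of 0.13 ± 0.13, 0.23 ± 0.14 and 0.25 ± 0.17. In each of them TBBC 3 lay within the vehicle range.

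Grouping by known biology separated these genes unevenly. Of the cytosolic members, 13 are commonly listed as ATF4 targets, and their median log2 fold change was 0.57, against 0.22 for the 6 that are not (Farsa, Farsb, Hars1, Kars1, Qars1 and Rars1). The contrast was largest in TBBC 2, with medians of 1.11 and 0.31, was 0.49 and 0.35 in TBBC 1, and ran the other way in TBBC 3, at -0.08 and -0.04. TBBC 2 was the highest of the 6 arrays in 11 of 13 listed members and in 2 of 6 others, against 20.0% of all transcripts. By structural class the medians were close, 0.30 for 9 class I enzymes and 0.36 for 9 class II enzymes, leaving out Eprs1, which is both. The 7 members of the multi-tRNA synthetase complex had a median of 0.25, and the 12 outside it 0.52. No gap between these groups was tested.

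The promoter letters were then set beside the values. Promoter windows from RefSeq (GRCr8), 250 bases before to 50 after each gene's start, were at hand for 33 of the 35 members, all but Gars1 and Rars1. The letters TTGCATCA, searched on both strands, occurred in 7 of 17 cytosolic members (41.2%), in 0 of 16 mitochondrial members and in 0.795% of all 33469 windows. The looser TGATGNAA takes in the same letters read on the other strand, so these 7 genes match it by construction. It was found in no other member with a window, and in 3.98% of all windows. The antioxidant response letters TGACNNNGC were found in 4 of 17 cytosolic and 3 of 16 mitochondrial members, against 12.1% of all windows. A match is a description and not a shown site. The 7 stretches are printed 5′ to 3′ on the gene's strand, as these are the genes that were most raised in TBBC 2 relative to TBBC 1; capitals mark the 8 letters, on either strand.
Aars1: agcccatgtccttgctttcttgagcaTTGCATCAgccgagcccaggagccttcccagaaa
Iars1: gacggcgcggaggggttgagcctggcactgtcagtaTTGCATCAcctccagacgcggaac
Mars1: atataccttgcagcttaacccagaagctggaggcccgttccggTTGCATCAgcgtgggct
Nars1: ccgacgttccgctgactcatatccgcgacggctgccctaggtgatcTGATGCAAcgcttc
Tars1: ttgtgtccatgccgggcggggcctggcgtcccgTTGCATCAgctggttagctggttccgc
Cars1: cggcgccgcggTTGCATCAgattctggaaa
Yars1: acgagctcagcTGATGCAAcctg
The letters began 27, 24, 17 and 14 bases before the start in Tars1, Iars1, Mars1 and Nars1, 112 bases before it in Aars1, and at base 18 and base 39 after it in Cars1 and Yars1. All 7 genes are among the 13 listed ATF4 targets.

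These 7 genes stood apart in how the treated rats differed from each other. TBBC 2 minus TBBC 1 ran from 0.64 in Yars1 to 1.17 in Cars1 for the 7 genes with the letters, with a median of 0.88. In the 10 cytosolic genes with a promoter window and without the letters it ran from -0.63 in Wars1 to 0.36 in Sars1, with a median of -0.07. Gars1 and Rars1, which have no window here, were at 0.61 and 0.36. The mitochondrial members, none with the letters, ran from -0.65 to 0.43. Over all transcripts the median was -0.04, and 9.73% were above 0.5. This was noticed after the values had been seen and is not tested.

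Other values bear on this pattern. The median log2 fold change was 0.30 for the 7 genes and 0.57 for the 10. Relative to vehicle, the medians of the 7 genes were 0.19, 1.06 and -0.20 in TBBC 1 to 3, against 0.61, 0.91 and 0.06 for the 10. The 7 genes were thus lower than the 10 in TBBC 1 and TBBC 3, and only slightly higher in TBBC 2. Over all 14 probes of the 7 genes the difference ran from 0.45 to 1.21, and over the 22 probes of the 10 genes it ran from -0.63 to 0.83, so single probes overlapped. TBBC 1 and TBBC 2 were on different slides. Within slide 2, TBBC 2 minus TBBC 3 was 0.91 to 1.58 for the 7 genes and -0.10 to 1.28 for the 10, with medians of 1.31 and 0.66, and the ranges overlapped. Of 60 measured genes with the letters that are not synthetases, 11 had TBBC 2 above TBBC 1 by more than 0.5 (18.3%), and of 9969 measured genes without them 9.04% did; the medians were 0.04 and -0.04.

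**Figure D2:**
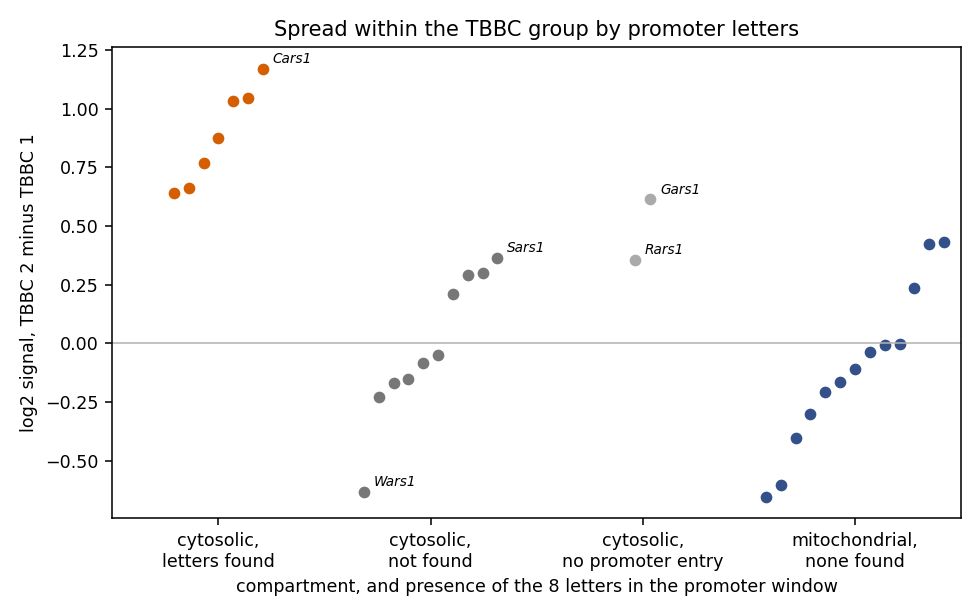
TBBC 2 minus TBBC 1 on the log2 scale, with 1 point per synthetase gene, by compartment and by whether TTGCATCA was found in the promoter window. The 7 genes with the letters lie between 0.64 and 1.17, and the 10 cytosolic genes without them between -0.63 and 0.36.

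Mitochondrial synthetases were close to vehicle levels as a group. Over the 13 measured genes the median log2 fold change was 0.10, with 8 above 0 and 5 below, although Tars2 was below 0 with quantile normalization and with the mean of a gene's probes, and Nars2 and Vars2 were above it on the shared slide. Their medians relative to vehicle were 0.14 in TBBC 1, 0.14 in TBBC 2 and -0.04 in TBBC 3. None passed in limma and 1 had an unadjusted p under 0.05 (20.0% of all transcripts). The groups were apart for 3 members, all with TBBC higher (13.1% of all transcripts), and for none with TBBC lower (15.2%).

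Ears2, the mitochondrial glutamyl enzyme, differed most from the other mitochondrial genes. It read -0.01, -0.23 and -0.28 in vehicle rats and 0.53, 0.96 and -0.01 in TBBC rats, with TBBC 3 level with the highest vehicle rat and only marginally above it. The difference was 0.67 ± 0.25 (SE, n = 3 per group), or 1.59-fold, and its other 3 probes gave 0.45, 0.73 and 0.73. Yars2 read -0.43, -0.53 and -0.26 against 0.12, 0.11 and -0.47 (0.33 ± 0.19), and Hars2 read 0.79, 0.86 and 0.84 against 1.00, 1.43 and 1.00 (0.31 ± 0.15). Hars2 was above the vehicle range in all 3 treated rats. Rars2, the third with separate groups, differed by 0.19 ± 0.12.

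On the probe that stands for each gene, several mitochondrial genes were low in TBBC 2, the rat with the highest cytosolic values. Cars2 read 2.73, 2.82 and 2.80 in vehicle rats and 2.76, 2.16 and 2.77 in TBBC rats, so that only TBBC 2 was below the vehicle range. Vars2 stood at -0.54, Aars2 at -0.38 and Nars2 at -0.35 relative to the vehicle mean in that rat. The other probe of Aars2 was inside the vehicle range in TBBC 2, at -3.55 against -3.50, -3.72 and -3.58. That of Nars2 was just below the range, at -2.16 against -2.04, -2.06 and -2.09. Cars2 and Vars2 have 1 probe each. Wars2 had the lowest mean difference, -0.32 ± 0.15, reading -0.24, -0.68 and -0.31 against -0.66, -0.70 and -0.83. Fars2, Pars2, Sars2 and Tars2 were between 0.01 and 0.18.

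The 2 compartments can be set side by side for 13 amino acids in 14 gene pairs, since Eprs1 pairs with Ears2 and Pars2, and Fars2 with Farsa and Farsb. The cytosolic enzyme had the larger log2 fold change in 13 of 14 pairs, and Hars2 exceeded Hars1 by 0.09. By rat, the cytosolic value was larger in 11 pairs in TBBC 1, 12 in TBBC 2 and 6 in TBBC 3. The gap was widest for tryptophan (1.42), valine (1.17) and asparagine (0.88), and narrowest for glutamate (0.01) and arginine (0.06). The gaps for glutamate, arginine, histidine, tyrosine and, with Farsa, phenylalanine were smaller than the standard error of either enzyme's own difference. For cysteine it was 1.75 in TBBC 2 but -0.03 in TBBC 1 and -0.22 in TBBC 3. The median of the cytosolic genes exceeded that of the mitochondrial genes by 0.27 over all rats, by 0.24, 0.80 and -0.01 in TBBC 1, 2 and 3, by 0.09 when TBBC 2 was left out and by 0.48 when TBBC 3 was.

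**Figure D3:**
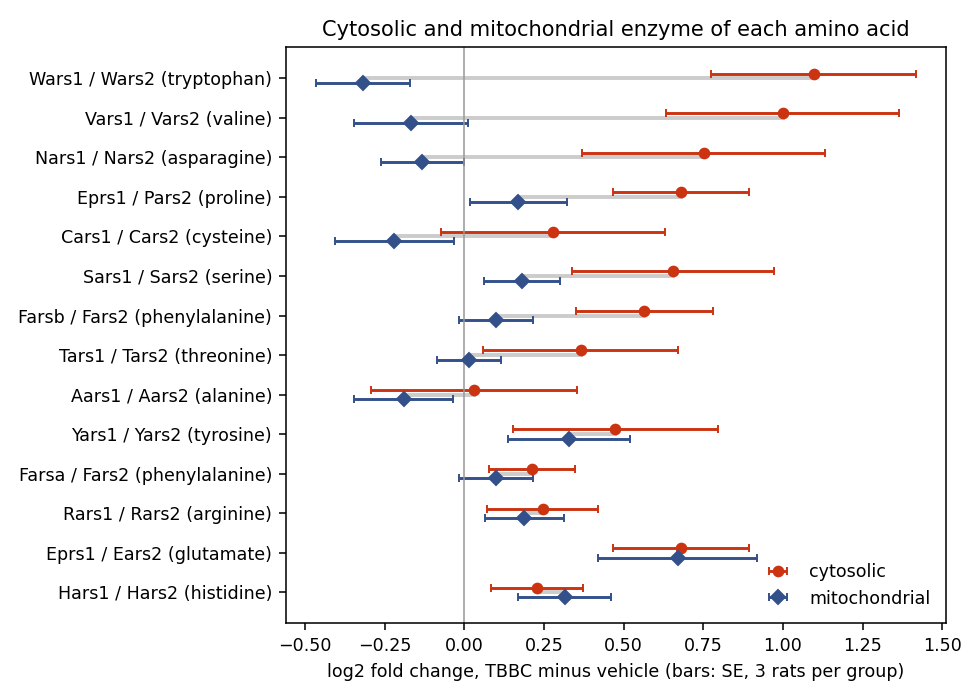
Log2 fold change (TBBC minus vehicle) of the cytosolic and mitochondrial enzyme for each amino acid, with standard errors and 3 rats per group, ordered by the gap. The cytosolic point lies to the right in 13 of 14 pairs, and the widest gap is that of Wars1 and Wars2, at 1.42.

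The array holds several probes for most members, which gives a check within the same RNA. Of 66 probes, 32 represent their genes, and 27 of the other 34 had the same sign of log2 fold change. The 7 with the opposite sign belonged to Aars1, Iars1, Qars1, Aars2, Nars2 and Tars2, whose own differences were within 0.19 of 0. The largest gap between a gene's probes was 0.28. All probes were above 0 for 16 of 19 cytosolic and 7 of 13 mitochondrial genes.

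Genes around the synthetases were taken from 5 lists. The scaffold proteins of the multi-tRNA synthetase complex, Aimp1, Aimp2 and Eef1e1, were at 0.24 ± 0.20, 0.12 ± 0.17 and 0.35 ± 0.24. Of these 3, 0 passed in limma and 0 had an unadjusted p under 0.05 (0.531% and 20.0% of all transcripts). Each was highest in TBBC 2 and lowest in TBBC 3, as in Cars1, Iars1, Mars1, Tars1 and Yars1. Aimp1, for example, read 3.63, 3.65 and 3.64 in vehicle rats and 3.85, 4.28 and 3.50 in TBBC rats. Among 8 measured enzymes that make, edit or release charged tRNA by other routes, the median was -0.07. Of these 8, 0 passed and 0 had an unadjusted p under 0.05 (again 0.531% and 20.0% of all transcripts). Sepsecs, which completes selenocysteinyl-tRNA, was at -0.21 ± 0.10, Dtd2, a proofreading deacylase, at -0.18 ± 0.11, Gatc, a subunit of the mitochondrial amidotransferase, at -0.15 ± 0.13, and Mtfmt, which formylates the mitochondrial initiator tRNA, at 0.18 ± 0.10.

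Sensors and regulators upstream of ATF4 formed another list. Of 14 genes for eIF2alpha, its kinases, eIF2B and the phosphatase subunits, 0 passed in limma and 1 had an unadjusted p under 0.05. Over all transcripts these shares were 0.531% and 20.0%. The median of the 14 was 0.12, with a range of -0.41 to 0.80. Eif2ak4 (GCN2), the kinase that senses uncharged tRNA, named for that role and not by its p, was at -0.15 ± 0.12. Eif2ak3 (PERK) was at 0.33 ± 0.15, Ppp1r15b, which directs dephosphorylation of eIF2alpha, at 0.35 ± 0.13, Eif2ak2 at 0.17 ± 0.10, and the eIF2B subunit Eif2b3 at 0.73 ± 0.34. The phosphorylation of eIF2alpha is not measured by transcript arrays.

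ATF4 target genes other than synthetases held the calls of the pathway. Of 27 measured genes of ATF4, its partners and its targets, 5 rose, 0 fell and 22 did not pass (limma, Benjamini-Hochberg; 0.255% of all transcripts rose), and the list median was 0.70. By sign alone, 22 of the 27 log2 fold changes were above 0 and 5 below (46.5% of all transcripts were above 0). Fgf21 and Pycr1, named for this reason, passed the filter through the TBBC group alone. The list median and the sign count include them, so nothing is read from those. All treated rats lay above all vehicle rats for 12 genes (13.1% of all transcripts) and below them for 2 (15.2%). Those 2 were Psph at -0.33 ± 0.13 and Vldlr at -0.21 ± 0.14, named after their values were seen. Stc2 was too dim to be tested. Pck2, mitochondrial phosphoenolpyruvate carboxykinase, read 2.35, 2.55 and 2.45 in vehicle rats and 4.45, 4.08 and 4.19 in TBBC rats. It rose 3.46-fold (log2 1.79 ± 0.13, adjusted p = 0.0140 in limma), with all 3 treated rats close together. Aldh1l2, a mitochondrial folate enzyme, read -3.78, -3.72 and -3.54 against -2.71, -2.84 and -2.79, and rose 1.87-fold (0.90 ± 0.11, adjusted p = 0.0388); its call was lost with any 1 array left out. For Asns, asparagine synthetase, the values were -0.82, -0.84 and -0.61 against 3.27, 3.19 and 2.39 (3.70 ± 0.25, adjusted p = 0.00944). Atf5 read -0.20, -0.06 and -0.23 against 2.92, 2.21 and 1.85 (2.49 ± 0.27, adjusted p = 0.0302), and Eif4ebp1, the translation repressor 4E-BP1, read 1.68, 1.58 and 1.67 against 4.33, 4.21 and 3.27 (2.29 ± 0.28, adjusted p = 0.0388). These 5 genes were well above vehicle in TBBC 3 as well, and TBBC 1 was their highest array. In fits without 1 array, the calls held in 3 of 6 for Asns and Pck2, 2 for Atf5, 1 for Eif4ebp1 and 0 for Aldh1l2. With slide as a fixed term the adjusted p was 0.126 for Eif4ebp1 and 0.151 for Aldh1l2. For Aldh1l2 it was also 0.0511 with slide as a random block and 0.0964 on the shared slide, where that of Pck2 was 0.0534. With no filter on dim probes it was 0.0672 for Atf5 and 0.0838 for Eif4ebp1 and Aldh1l2, and with the mean of a gene's probes 0.0893 for Aldh1l2. The number called over all lists, 5, was 0, 0 and 1 without vehicle 1, 2 and 3, and 3, 2 and 9 without TBBC 1, 2 and 3.

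Atf4 itself and several of its stress targets had another order, with TBBC 2 far above the rest. Atf4 read 4.43, 4.41 and 4.33 in vehicle rats and 4.37, 5.95 and 4.15 in TBBC rats. Only TBBC 2 was above the vehicle range, as in Cars1, and the difference of 0.43 ± 0.46 did not pass. Trib3, a pseudokinase that restrains ATF4, read -3.61, -3.64 and -4.42 against -1.38, 1.32 and -2.71. Mthfd2, a mitochondrial folate enzyme, read -1.89, -1.99 and -2.11 against -0.47, 2.60 and -1.05. Ddit3 (CHOP) read 2.76, 2.71 and 2.47 against 3.51, 4.62 and 2.61. None of these 3 passed, and in each TBBC 2 was the highest and TBBC 3 the lowest of the treated rats. Atf4, Trib3, Mthfd2 and Ddit3 are named here after their values were seen.

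**Figure D4:**
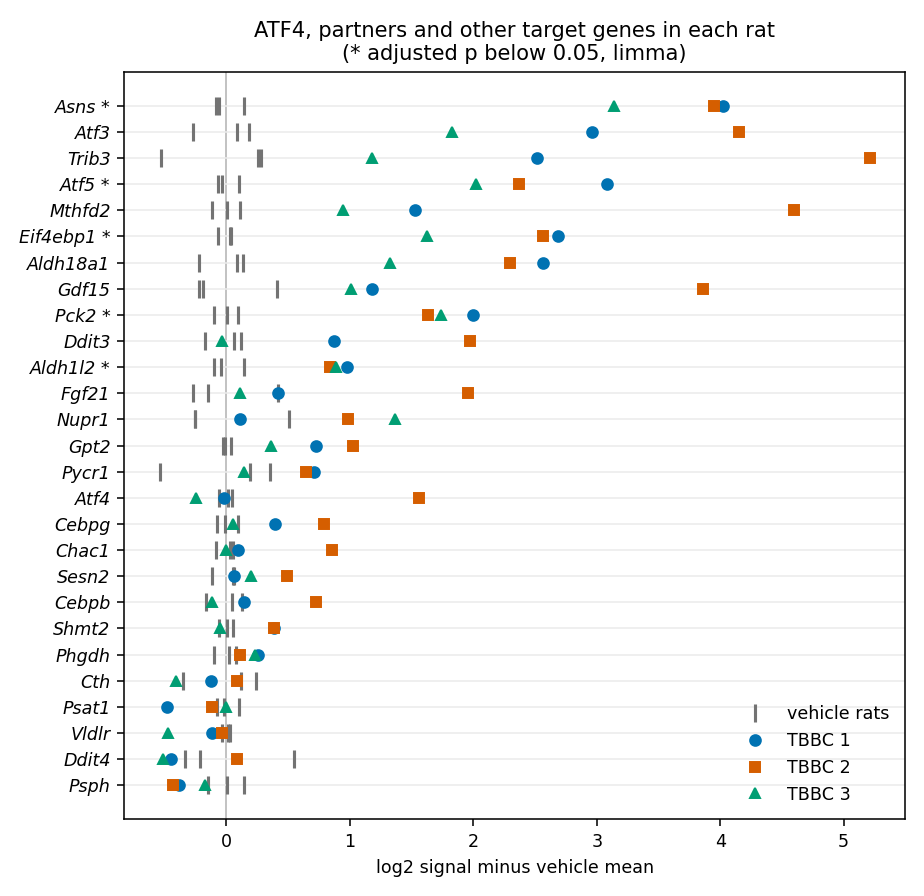
The log2 signal of 27 genes of the ATF4 list minus the vehicle mean in each rat, with asterisks on the 5 genes with an adjusted p below 0.05 in limma. In Asns, Atf5, Eif4ebp1, Pck2 and Aldh1l2 all treated rats lie away from vehicle, whereas Atf4 is apart only in TBBC 2, at 5.95 against 4.33 to 4.43 in vehicle rats.

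None of the amino acid transporters of the same response passed. Of 8 measured, 0 passed in limma (5 at an unadjusted p under 0.05, against 20.0% of all transcripts). All 8 had a log2 fold change above 0 (46.5% of all transcripts) and the median was 1.83. Slc1a5, Slc38a2 and Slc3a2 overlapped the vehicle range, at 0.19, 0.16 and 0.14. Slc7a11, the cystine carrier, was at 6.52 ± 0.96 (adjusted p = 0.0541), reading -5.41, -4.95 and -5.69 against 1.72, 2.89 and -1.08, with 2 of 3 vehicle arrays well above background. Slc1a4, a neutral amino acid carrier, lay well above background on no vehicle array and was at least 3.86-fold higher in TBBC rats (adjusted p = 0.0571); the bound sets the TBBC mean against a vehicle floor, for which each array gave its dimmest detected signal or the probe's own signal if brighter. The glycine carrier Slc6a9 was at 2.54 ± 0.55. The cationic amino acid carrier Slc7a3 read -8.11, -8.02 and -5.44 against -4.27, -3.94 and -3.23, with only 1 vehicle array well above background, so its difference is not given. Slc7a11, Slc1a4 and Slc7a3 entered the test through the TBBC group alone, where they are high. The counts and the median of this list include them, so nothing is read from those. Nor is anything read from the difference of Slc7a11 or from the adjusted p of Slc7a11 and Slc1a4. The order of the treated rats varied: Slc7a11 and Slc1a4 were highest in TBBC 2 and lowest in TBBC 3, Slc6a9 was highest in TBBC 1, and Slc7a3 in TBBC 3.

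Markers of other cell types differed among the treated rats too. The summed signal of 15 myeloid markers was 114 to 146 in vehicle rats and 108, 124 and 246 in TBBC 1 to 3; that of 13 lymphocyte markers was 2.73 to 3.52 and then 2.58, 2.45 and 5.37; and that of 6 fibroblast markers was 23.4 to 28.3 and then 26.0, 19.8 and 43.5. These 3 lists peaked in TBBC 3, where the cytosolic synthetases were near vehicle levels. Podocyte markers (5 genes) summed to 27.8 to 31.4 in vehicle rats and 28.3, 24.9 and 19.5 in TBBC rats, and TBBC 3 was the lowest treated rat for 5 of 5, as for most cytosolic synthetases. Collecting duct markers (4 genes) summed to 131 to 178 and 97.6, 120 and 121. Of 5 skeletal muscle markers, Myh4, Myh1 and Ckm were too dim to be tested, and the other 2 summed to 0.09 to 0.11 and then 0.07, 0.09 and 0.12. In limma 0 of these 45 genes passed and 2 had an unadjusted p under 0.05 (0.531% and 20.0% of all transcripts). Of the 8 proximal tubule markers, 7 had a log2 fold change below 0 and 1 above. In limma 0 of the 8 passed (2 at an unadjusted p under 0.05, against 20.0% of all transcripts). All treated rats lay below all vehicle rats for 2 of the 8, Aqp1 at -0.77 ± 0.17 and Lrp2 at -0.37 ± 0.10 (15.2% of all transcripts). The part of cell makeup in the synthetase values, and that of the dimmer array of TBBC 2, was not tested. Quantile normalization gives every array the same distribution but cannot tell that array from that rat. The cytosolic median was 0.34 with it.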

How the data were processed

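The authors deposited scanner files of spot intensity from 6 Cy3 arrays, written by Agilent Feature Extraction (version 10.7.1.1 in the headers, 10.7 in the submitters' processing notes); per the file headers that program subtracted background and spatial trends array by array, with no scaling across arrays. A deposited value table holds a linear ratio of that signal to a number within 0.12% to 0.23% of each array's 75th percentile, found by setting one against the other; its column medians were 0.107 to 0.114, and no centring was seen. The authors' statistical methods: not given in the sources used here.

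Among 61537 non-control probes, 28206 were named through accessions matched to a RefSeq table of assembly GRCr8; since the headers name another build, coordinates are left out. Each signal over its array's 75th percentile was put on the log2 scale, with no pseudocount. Spots flagged as outliers (0 to 9 per array) were dropped on that array, and none was of a member. A probe was tested where 1 group had it well above background on each array without a flag, given at least 2 such arrays per group. The brightest tested probe stood for its gene, and an unnamed probe for itself, which gave 32956 transcripts. Groups were compared with limma 3.58.1 in R 4.3.3 (two-sided, lmFit and eBayes), p-values were adjusted by Benjamini-Hochberg across the transcripts, and the threshold was 0.05; ± marks the standard error of a difference. The procedure was tested on simulated data that gave both groups the same spread, which the cytosolic members do not have.

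Members and lists were chosen with earlier results of these data known. Named genes are the members, and of each pathway list those past the threshold and the 4 with the smallest p; others are marked in the text. Alternatives were scalings (quantile, median, 75th percentile of probes detected on all arrays), normexp on the median signal with offset 50 (the files have no mean signal), the value table, filters, averaging of probes, eBayes with trend and robust, slide (fixed, random block with statmod 1.5.0, shared slide alone), a replicate block, and each array left out.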

Additional observations from a re-analysis of the deposited data

How the results depend on the processing

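The cytosolic median log2 fold change stayed above 0 under all 19 alternatives, from 0.17 without TBBC 2 to 0.62 without TBBC 3, as did the mitochondrial median (0.03 to 0.14) and the gap between them (0.09 to 0.48). The count of cytosolic members called by limma was 0 except on the shared slide alone (1, Wars1) and without TBBC 3 (1, Vars1), with a range of 0 to 1 over the fits without 1 array; that of mitochondrial members was 0 throughout. Cytosolic members with separate groups numbered 3 with the mean of probes, 17 on the shared slide, where TBBC 1 is the only treated rat, and 5 to 16 with 1 array left out. Pathway calls numbered 8 with normexp, 2 with no filter, 9 with trend and robust, 3 with slide as a fixed term, 0 with the replicate block and 0 to 9 with 1 array left out. Calls over all transcripts numbered 764, 52, 1087, 48 and 0 under those same 5 alternatives, 64 on the shared slide, and 6 to 263 with 1 array left out (11, 6 and 18 without vehicle 1, 2 and 3, and 263, 57 and 258 without TBBC 1, 2 and 3). The share of calls that were higher in TBBC was 48.0% on all arrays, 89.6% with slide as a fixed term and 92.2% on the shared slide. The cause of these shifts was not tested. With the replicate number as a block, the cytosolic median was 0.36. Same-numbered rats correlated at -0.09, 0.03 and -0.07 in their deviations from the group means. With 3 rats per group, these values cannot show whether such rats share more than a number. The promoter pattern was examined after seeing the data under 8 alternatives of scaling, background, filter and probe choice: the lowest value of the 7 genes was 0.62 to 0.72 and the highest of the 10 others 0.35 to 0.56. With 3 arrays per group, the number of arrays limits what can be called.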
